A study of Homo sapiens with 6 samples.

Results

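The genes described here are the D-type cyclins, their kinases and the brakes on them: CCND1, CCND2, CCND3, CDK4, CDK6, CDKN1A, CDKN1B, CDKN2A, CDKN2C and RB1. They were taken by symbol, 10 genes in all, and 9 of them were measured among the 22411 genes tested. CDKN2C was not analysed here because no feature of the array carried its symbol alone in the annotation used. The samples were 3 arrays of RH30-IκBα SR cells and 3 arrays of RH30-vector cells. RH30 is an established alveolar rhabdomyosarcoma line, known for the PAX3-FOXO1 fusion and for amplification of the chromosome arm segment that carries CDK4. The IκBα SR cells stably express the super repressor, an IκBα that signalling cannot degrade, so that the classical NF-κB dimers stay bound in the cytoplasm, from the retroviral vector pBabe-puro. The vector cells received the vector alone. Both lines came from the same parent, were infected with retrovirus and grew in DMEM with 10% fetal bovine serum, and the labels name no treatment or time that separates them. They also name no separate infections or cultures, so the p-values below measure the spread between arrays, which may be technical. Line and transgene cannot be told apart in this design.

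D-type cyclins are made when growth signals arrive, and they activate CDK4 and CDK6. The active kinases phosphorylate RB1, the retinoblastoma protein, which then releases the E2F transcription factors and lets the cell enter S phase. The INK4 inhibitors, among them the p16 product of CDKN2A, bind CDK4 and CDK6 directly. The CIP/KIP inhibitors, CDKN1A (p21) and CDKN1B (p27), mainly inhibit cyclin E and cyclin A complexes of CDK2 and also bind cyclin D complexes. NF-κB is known as an activator of CCND1 in several cell types, and in muscle precursors the loss of cyclin D with the gain of CDK inhibitors accompanies exit from the cycle. RNA levels do not show protein level, phosphorylation or kinase activity, and in bulk RNA fewer cells and less RNA per cell cannot be told apart.

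All values are log2 probe set levels of the Human Transcriptome Array 2.0, and differences are IκBα SR minus vector. A gene was called where the adjusted p from limma, by Benjamini-Hochberg over all 22411 genes, was under 0.05. Array medians lay between 4.344 and 4.398, and between 764 and 824 features per array were above 16, the log2 of the highest value that a scanner reports. NFKBIA, which encodes IκBα, read 13.55, 13.74 and 13.57 on the IκBα SR arrays, against 11.61, 11.66 and 11.58 on the vector arrays, a difference of 2.00 (SE 0.061, adjusted p = 1.4e-04, limma). The myogenic markers MYOD1 and DES averaged 13.27 ± 0.22 and 15.71 ± 0.05 on the IκBα SR arrays (SD, n = 3), and 12.65 ± 0.05 and 14.71 ± 0.00 on the vector arrays (SD, n = 3). Of the 12 rhabdomyosarcoma and myogenic markers 5 were called higher and 3 lower. The lower markers were MYOG (-1.17), MYF5 (-1.33) and MYMK (-0.72), and TFAP2B and CDH3 were below the median gene. All 5 epithelial and all 5 endothelial markers were below the median gene as well, as were 3 of 6 fibroblast and 5 of 6 leukocyte markers. The defining leukocyte marker PTPRC read 3.56 on all arrays, and CD68 was lower in IκBα SR cells (-0.99, adjusted p = 0.0016, limma). Of the 6 fibroblast markers 1 was called higher, LUM (1.56), and 2 lower, THY1 (-0.35) and PDGFRB (-0.26).

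Among the 9 measured genes CCND1, CCND2 and CDKN1B were higher and CDK6 and RB1 were lower in IκBα SR cells, while CCND3, CDK4, CDKN1A and CDKN2A were not called. The 5 calls make up 55.6% of the measured set, against a background of 18.3% of all genes. All 9 lie at or above the median gene level of 5.13, and among the 11206 genes at or above that level 34.2% were called. By direction, 3 were called higher, against a background of 9.76%, and 2 lower, against 8.58%. The arrays of the groups did not overlap for the same 5 genes, and for 29.6% of all genes. The median log2 difference was 0.02 over the 9 genes and 0.00 over all genes, with called genes on either side of 0.

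**Figure D1:**
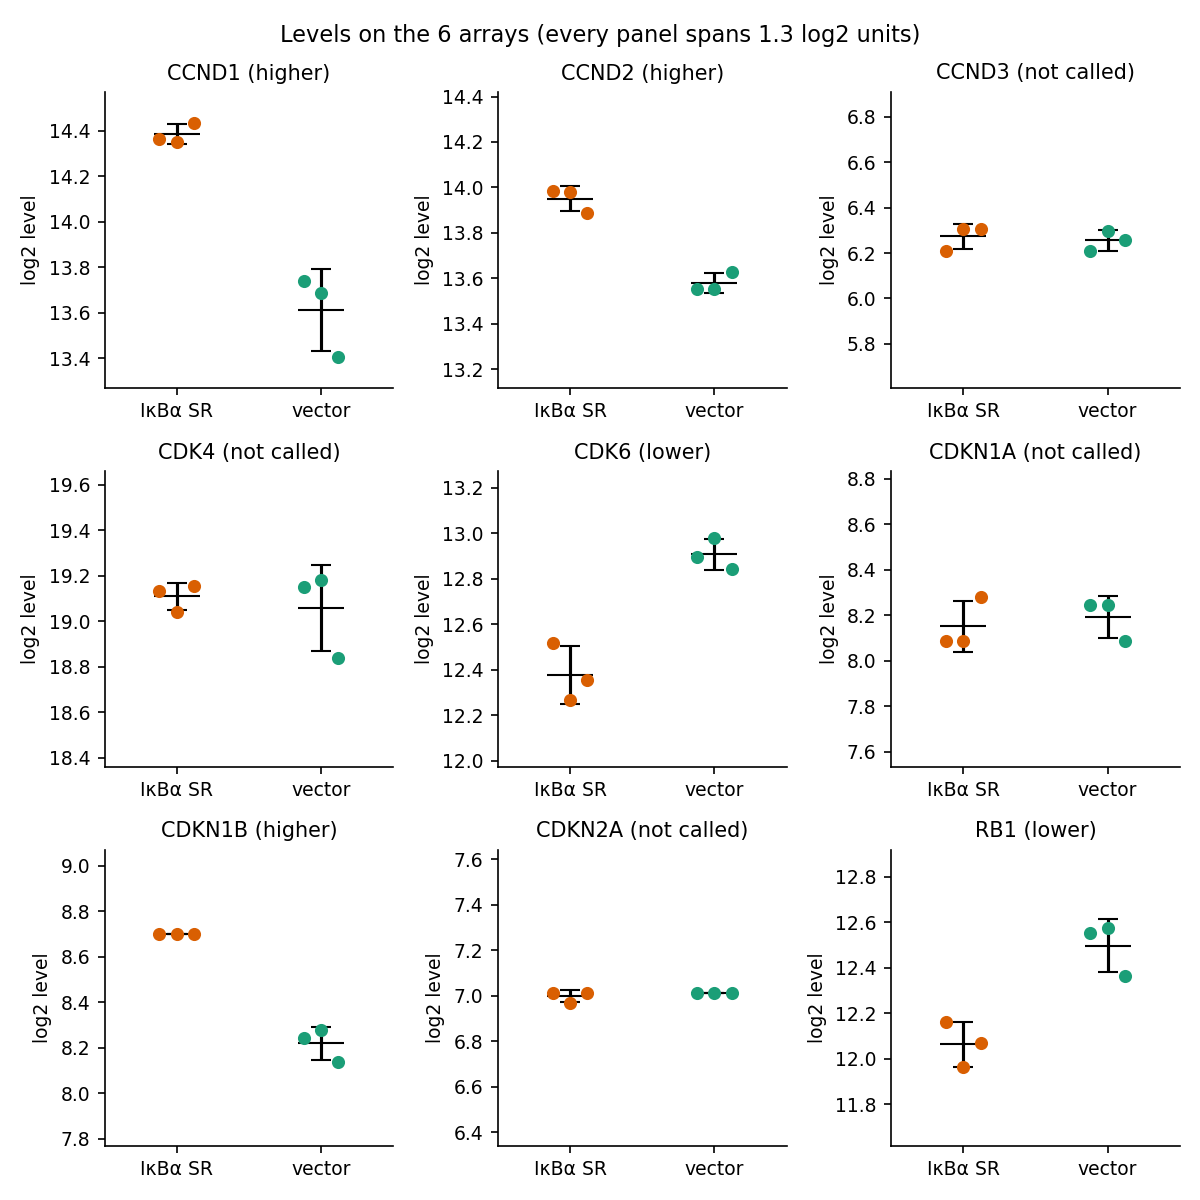
Log2 levels of the 9 measured genes on each array (points), with the group mean and SD (bars, n = 3 arrays), IκBα SR left and vector right; the vertical axes have the same length but start at different levels. The IκBα SR points lie wholly above the vector points for CCND1, CCND2 and CDKN1B and wholly below them for CDK6 and RB1.

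CCND1, which encodes cyclin D1, had the largest difference of the set. Its levels were 14.37, 14.35 and 14.44 in IκBα SR cells, against 13.74, 13.69 and 13.41 in vector cells. The groups stood clear of each other, and the vector arrays spread more, with replicate 3 lowest. The means were 14.38 ± 0.04 in IκBα SR cells and 13.61 ± 0.18 in vector cells (SD, n = 3 each), a log2 difference of 0.77 (SE 0.10, 95% interval 0.51 to 1.04, adjusted p = 0.0079, limma), or 1.71-fold. The gene lies on chromosome 11.

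CCND2, which encodes cyclin D2 and lies on chromosome 12, changed the same way and by less. It read 13.98, 13.98 and 13.89 in IκBα SR cells, against 13.56, 13.56 and 13.63 in vector cells. The lowest IκBα SR value exceeded the highest vector value, and 2 of the vector arrays held exactly the same value. The difference was 0.37 (SE 0.037, adjusted p = 0.0037, limma), or 1.29-fold, and its 95% interval of 0.27 to 0.47 lies below that of CCND1. CCND3, on chromosome 6, encodes cyclin D3, the D-type cyclin usually retained in differentiated muscle. Its levels were 6.21, 6.31 and 6.31 in IκBα SR cells, against 6.21, 6.30 and 6.26 in vector cells. The groups overlapped, and the difference of 0.02 (95% interval -0.08 to 0.12, adjusted p = 0.84, limma) was within the spread between arrays.

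CDK4, the kinase that RH30 cells carry in extra copies and that pairs with all D cyclins, gave 19.13, 19.04 and 19.15 in IκBα SR cells, against 19.15, 19.18 and 18.84 in vector cells. The groups overlapped, with vector replicate 3 lowest of all. Its difference was 0.05 (SE 0.11, 95% interval -0.23 to 0.33, adjusted p = 0.83, limma), and without vector replicate 3 it turned to -0.06. All CDK4 values were above 16 on the log2 scale, above the highest value that a scanner reports, and whether the signal still follows the RNA there was not tested. After a further quantile normalization CDK4 was called, at 0.17 (adjusted p = 0.042).

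CDK6, the other cyclin D kinase, on chromosome 7, was lower in IκBα SR cells. It read 12.52, 12.27 and 12.35 in IκBα SR cells, against 12.90, 12.98 and 12.84 in vector cells. The highest IκBα SR array stayed below the lowest vector array. The means were 12.38 ± 0.13 in IκBα SR cells and 12.91 ± 0.07 in vector cells (SD, n = 3 each), a log2 difference of -0.53 (SE 0.078, adjusted p = 0.012, limma), or 0.693-fold. The call was lost when IκBα SR replicate 3 was left out, with -0.52 and an adjusted p of 0.058.

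CDKN1B, which encodes p27 and lies on chromosome 12, was the only CDK inhibitor of the set that was called. Its level was 8.70 on all 3 IκBα SR arrays, to the last digit, against 8.24, 8.28 and 8.14 on the vector arrays. The IκBα SR values lay above all vector values, but their SD of 0 does not measure a spread between arrays, and the test borrowed its spread from the vector arrays and the other genes. The difference was 0.48 (SE 0.040, adjusted p = 0.0021, limma), or 1.397-fold.

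CDKN1A, which encodes p21 and lies on chromosome 6, was not called. Its levels were 8.09, 8.09 and 8.28 in IκBα SR cells, against 8.25, 8.24 and 8.09 in vector cells, with the same lowest value on 3 arrays of the 6. The groups overlapped, and the difference was -0.04 (95% interval -0.24 to 0.16, adjusted p = 0.81, limma). CDKN2A, on chromosome 9, encodes the INK4 inhibitor p16 and, in another reading frame, the p53 activator ARF, which the array does not separate here. It gave 7.01, 6.97 and 7.01 in IκBα SR cells, against 7.01 on every vector array. The same value stood on 5 arrays, the difference was -0.01 (adjusted p = 0.60, limma), and a shared value of this kind does not measure the error.

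RB1, on chromosome 13, is the substrate that the cyclin D kinases inactivate. It read 12.16, 11.96 and 12.07 in IκBα SR cells, against 12.55, 12.57 and 12.36 in vector cells. The groups did not overlap, and the gap between them was narrower than for CDK6. The means were 12.06 ± 0.10 in IκBα SR cells and 12.50 ± 0.12 in vector cells (SD, n = 3 each), a log2 difference of -0.43 (SE 0.082, adjusted p = 0.027, limma), or 0.741-fold. This call was lost without IκBα SR replicate 2, IκBα SR replicate 3, vector replicate 1 or vector replicate 2, with adjusted p from 0.084 to 0.099 and differences from -0.38 to -0.44.

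**Figure D2:**
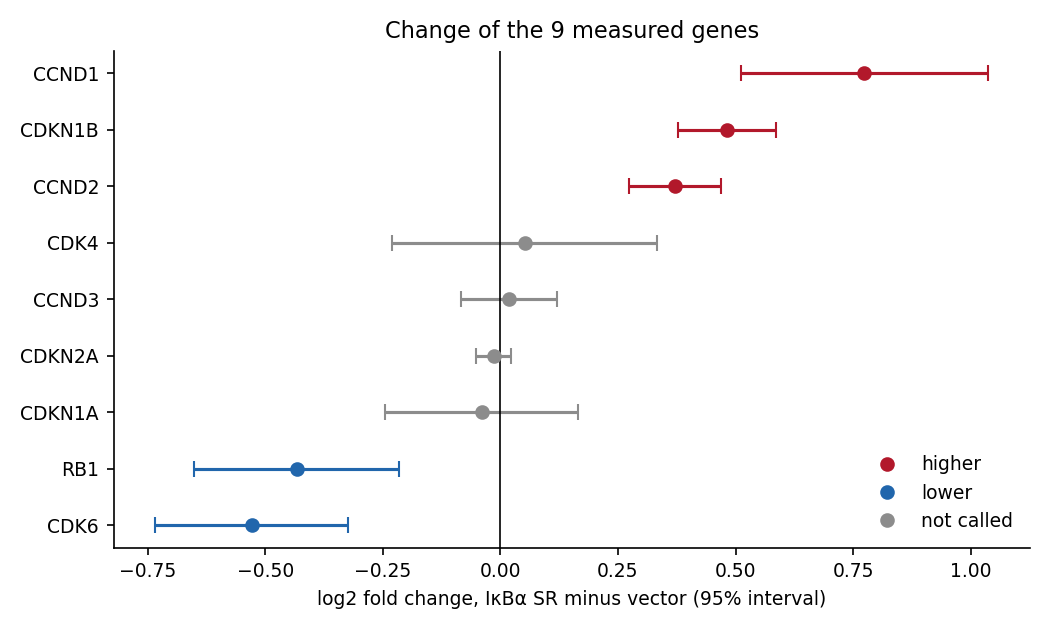
Log2 difference, IκBα SR minus vector, of each measured gene (point) with its 95% interval from limma (bars, 3 arrays a group), ordered by size. The intervals of CCND1, CDKN1B and CCND2 lie above 0, those of RB1 and CDK6 below 0, and the other 4 cross it.

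Balance within the set was compared in the same array, which removes shifts common to all features. The difference between 2 genes on an array carries their probes' own brightness, so only its change between groups can be read. CCND1 minus CCND2 was 0.43 ± 0.10 in IκBα SR cells and 0.03 ± 0.22 in vector cells (SD, n = 3 each), a shift of 0.40 toward CCND1. CDK4 minus CDK6 was 6.73 ± 0.10 in IκBα SR cells and 6.15 ± 0.14 in vector cells, a difference of 0.58. As CDK4 read above 16 on all arrays, this value cannot be read as a change in the balance of the kinases. CDKN1A minus CDKN1B was -0.55 ± 0.11 in IκBα SR cells and -0.03 ± 0.03 in vector cells, a shift of 0.52 toward CDKN1B (-0.52). Relative to CCND3, CCND1 shifted by 0.76 and CCND2 by 0.35. Every pair holds a gene already described as not overlapping between the groups, so these values restate those calls. The groups did not overlap in the 5 pairs. The share of 29.6% is of single genes and is no background for pairs, and no share over pairs of genes was computed. Each pair gave p = 0.1 in the 2-sided exact permutation test (0.1 after Benjamini-Hochberg over the 5). This is the smallest value that 3 arrays against 3 allow, so no pair could reach 0.05.

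Promoter sequence was taken from RefSeq annotation on GRCh38.p14 for the genes with an entry in the table, 8 of the 10, without CCND1 and CCND2. The 250 bases before the start are shown for the kinases and for CDKN1B, on the gene's own strand, because CDK6 and CDKN1B changed in opposite directions while CDK4 was not called. Capitals mark the E-box CACGTG, the CCAAT box and the GC box GGGCGG, the last also as CCGCCC where it lies on the other strand.
CDKN1B chr12:12717118-12717367 (plus strand): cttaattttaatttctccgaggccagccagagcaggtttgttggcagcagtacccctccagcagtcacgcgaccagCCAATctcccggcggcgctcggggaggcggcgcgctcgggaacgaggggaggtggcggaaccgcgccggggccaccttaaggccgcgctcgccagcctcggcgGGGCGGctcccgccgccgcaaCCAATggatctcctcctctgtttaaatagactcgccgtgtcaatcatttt
CDK6 chr7:92836574-92836823 (minus strand): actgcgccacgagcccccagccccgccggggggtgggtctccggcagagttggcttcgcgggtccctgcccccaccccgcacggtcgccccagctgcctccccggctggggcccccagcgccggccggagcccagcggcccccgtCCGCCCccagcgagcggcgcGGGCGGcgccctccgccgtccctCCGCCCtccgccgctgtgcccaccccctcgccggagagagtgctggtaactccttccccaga
CDK4 chr12:57752311-57752560 (minus strand): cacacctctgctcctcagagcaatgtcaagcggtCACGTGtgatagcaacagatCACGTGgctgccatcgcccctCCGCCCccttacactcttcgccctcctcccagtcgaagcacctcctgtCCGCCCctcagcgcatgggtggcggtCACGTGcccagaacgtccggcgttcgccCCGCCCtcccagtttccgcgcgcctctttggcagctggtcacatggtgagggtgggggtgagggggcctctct
The CDK4 window holds 3 E-boxes, the element bound by MYC and related factors, and 3 GC boxes, the element bound by SP1. At least 1 E-box was in 6.34% of the 35116 promoter windows of the same length, and 3 or more in 0.0797%. The CDK6 window shown holds 3 GC boxes and no other marked motif, and 13.9% of all windows held as many. Another CDK6 window, away from the annotated gene start, holds no marked motif. The CDKN1B window holds 2 CCAAT boxes, the element bound by NF-Y, and 1 GC box, which were present at least once in 32.0% and 42.6% of all windows. The κB motif, searched on both strands by its usual consensus, was in 0 of the 14 windows of the set and in 9.96% of all windows. Of the 14, 5 lie at the annotated gene start, those shown among them, and 9 elsewhere, including every window of RB1, CDKN1A and CCND3, and 3 of the 14 belong to CDKN2C, which was not measured. These matches are letters in a window and were not tested as binding sites.

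The genes beside each member on its chromosome were set next to it, 10 on each side among protein-coding genes at or above the median gene level. The neighbours named here were picked after their values were seen. Around CDK6 and RB1, which were lower, more neighbours were lower than higher. The 20 neighbours of CDK6 had a median of -0.35, with 4 called higher and 10 lower, and the 5 nearest on each side had a median of -0.71 with 0 higher and 7 lower. On the side with lower coordinates the median of 10 was -0.57, with 2 higher and 7 lower, and on the side with higher coordinates it was 0.04, with 2 higher and 3 lower. An unbroken run of called genes reached across CDK6, including KRIT1 (-0.73), known from cerebral cavernous malformations, and SAMD9L (-1.79), an interferon-induced gene. At the far end of the low side CDK14 was 0.74 higher. RB1's neighbours had a median of -0.31, with 0 called higher and 11 lower. ITM2B, next to it, was at -0.95 and FNDC3A at -0.88, so RB1 with -0.43 lay inside the range of its neighbours. The part of the neighbourhood in these changes was not tested.

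The neighbours of CCND1 differed between its sides. On the side with lower coordinates the median was 0.01, with 2 higher, CPT1A (0.66) among them, and 1 lower of 10. On the side with higher coordinates it was 1.57, with 8 higher and 0 lower, among them FADD (1.85), the death receptor adaptor, PPFIA1 (1.89), CTTN (1.72), which encodes cortactin, and DHCR7 (1.96), a cholesterol synthesis enzyme. LTO1, directly next to CCND1, was 0.23 higher. CCND1 with 0.77 was exceeded by 7 of its 20 neighbours.

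CDKN1B's neighbours had a median of 0.15, with 7 higher and 2 lower. The 5 nearest on each side had a median of 0.32, with 5 higher and 1 lower. Adjacent genes DUSP16 (1.23), CREBL2 (0.49) and DDX47 (0.76) were higher together with it, EMP1 was 1.69 higher, and ETV6, a transcriptional repressor, was lower (-0.34). CCND2 lies elsewhere on chromosome 12, and its neighbours had a median of 0.03, with 3 higher and 4 lower, and only FERRY3 (0.63) and ANO2 (2.10) of the 20 had a higher difference than CCND2 itself.

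Around CDK4 more genes were lower than higher, 9 against 2 of 20, with a median of -0.17. AGAP2 (-3.21) and TSPAN31 (-0.27), the genes next to CDK4 on its low side, were lower, while CDK4 had 0.05, read from a signal above 16 that was not ranked against them. CCND3, CDKN1A and CDKN2A, the other genes not called, had neighbour medians of 0.04, -0.02 and 0.00.

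**Figure D3:**
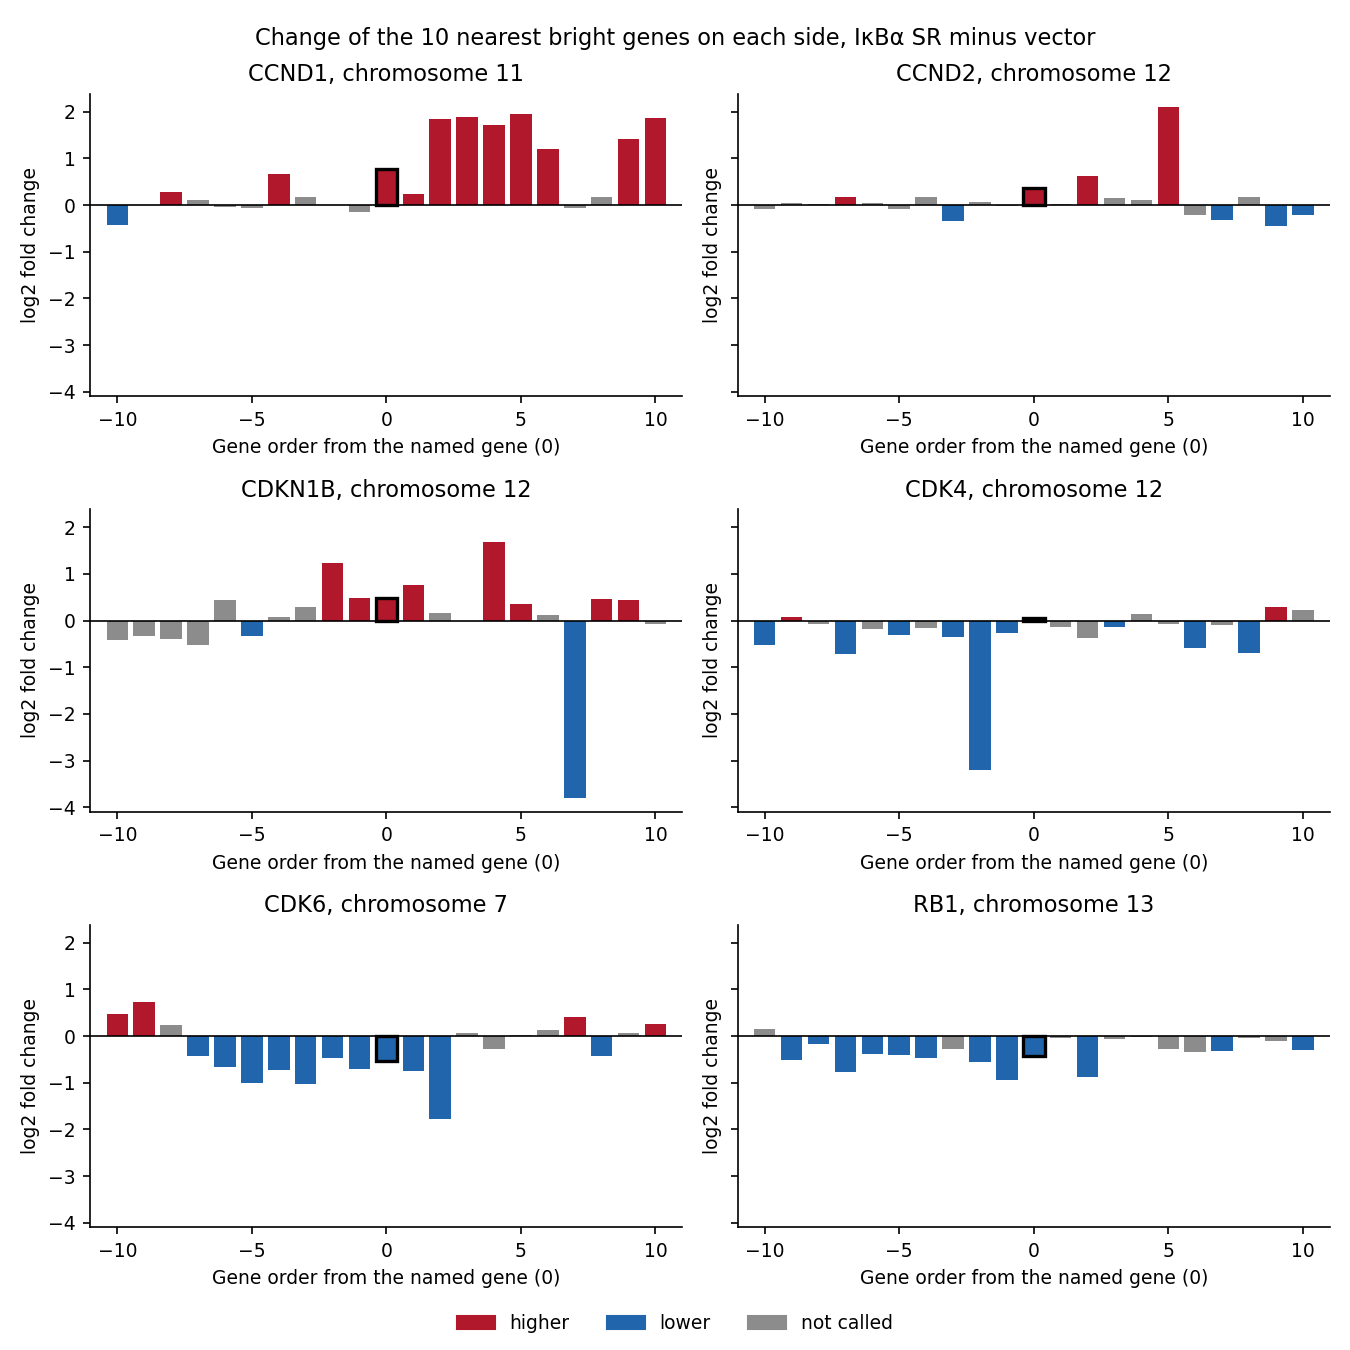
Log2 difference, IκBα SR minus vector, of 6 genes of the set (outlined bar at 0) and of the 10 nearest protein-coding genes on each side at or above the median gene level, in chromosome order; colour gives the limma call. Bars run down together around CDK6 and RB1, and up on the right of CCND1, while those around CCND2 do not follow the outlined gene. Around CDK4 9 bars are called lower and 2 higher, and its own bar, from a signal above 16, was not ranked against them.

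The rest of the pathway was described by lists chosen for their role. In the step after the D cyclins, that of cyclin E and CDK2, 2 of 13 genes were higher and 2 lower (30.8% called, median 0.02). CCNE1 (cyclin E1) was 0.31 higher (adjusted p = 0.032) and CCNE2 (cyclin E2) was at -0.25 (adjusted p = 0.034), so the E cyclins changed in opposite directions. CDC25B, a phosphatase that activates CDKs, was 0.44 higher, and CKS2, a small CDK subunit, was at -0.50. The 20 neighbours of CDC25B had a median of 0.33, with 12 higher and 0 lower. Those of CKS2 had -0.16, with 0 higher and 9 lower. Those of CCNE2 had -0.17, with 1 higher and 6 lower, and those of CCNE1 0.02, with 1 higher and 7 lower. CDK2 itself had -0.17 (adjusted p = 0.11, limma).

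Of 4 other CDK inhibitors, CDKN3, a phosphatase that acts on CDK2, was 0.39 higher, and CDKN1C, CDKN2B and CDKN2D were not called. The 20 neighbours of CDKN3 had a median of 0.33, with 11 higher and 0 lower. Among 17 pocket proteins, E2F and DREAM complex genes 3 were higher and 4 lower (41.2% called, median -0.02). E2F7, a repressor E2F, was 0.77 higher and E2F2, an activator, 0.29 higher. E2F1, also an activator, was at -0.44 (adjusted p = 0.0041, limma). RBL2, which encodes the RB1 relative p130, was at -0.34, while RBL1, which encodes p107, gave -0.05 (adjusted p = 0.56, limma). Neighbours of E2F7 had a median of 0.31, with 10 higher and 1 lower, and those of RBL2 -0.10, with 0 higher and 6 lower. Those of E2F1 had -0.11, with 3 higher and 5 lower, and those of E2F2 -0.035, with 1 higher and 3 lower.

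Of 17 genes whose proteins control the breakdown of the D cyclins and inhibitors, the RNA of 16 was measured, with 3 higher and 2 lower (31.2% called). SKP2, the ubiquitin ligase subunit that recognises p27, averaged 15.10 in IκBα SR cells and 14.16 in vector cells, a difference of 0.94 (SE 0.033, adjusted p = 2.1e-04, limma). CDKN1B RNA and SKP2 RNA were thus higher together. FBXW7, which recognises cyclin E, was at -0.36, CUL4A at -0.29 and USP2, a deubiquitinase of cyclin D1, at 0.32. Neighbours of FBXW7 had a median of -0.24, with 0 higher and 8 lower, and the 17 of CUL4A -0.23, with 0 higher and 7 lower. Those of SKP2 had 0.15, with 8 higher and 2 lower, and those of USP2 -0.05, with 3 higher and 3 lower.

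Of 13 regulators upstream of D cyclin transcription 3 were higher and 3 lower (46.2% called, median -0.17). The growth regulators YAP1 (1.23), TCF7L2 (1.00), a partner of β-catenin, and EGR1 (0.92), an immediate early factor, were higher. STAT3 (-0.50), FOSL1 (-0.51) and MYCN (-0.85) were lower. The 20 neighbours of MYCN had a median of -0.72 with 17 lower, those of TCF7L2 0.64 with 14 higher and those of YAP1 0.40 with 12 higher, in the direction of the gene, while those of STAT3 had -0.06. MYC had -0.17 (adjusted p = 0.37, limma). Of the 20 genes of the p53 list, 16 were measured. Of the measured genes 2 were higher, among them ZMAT3 (0.41), and 3 lower, among them GADD45A (-0.25) and FAS (-0.25). FAS was below the median gene. MDM2, the p53 antagonist, was not called at 0.23 (adjusted p = 0.097, limma).

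The E2F target genes, whose transcription follows RB1 inactivation, split evenly. Of 28 measured, 6 were higher and 6 lower (42.9% called), with a median of -0.01 against 0.00 over all genes. TYMS (0.82), thymidylate synthase, GINS1 (0.86), a replication helicase subunit, PCNA (0.61), the polymerase clamp, and POLA1 (0.44) were higher. EZH2 (-0.86), a histone methyltransferase, RRM2 (-0.60), a ribonucleotide reductase subunit, and UHRF1 (-0.31) were lower. Neighbours of TYMS, 12 genes with only 2 on the low side, had a median of 1.36. Those of PCNA had 0.61, those of GINS1 0.36 and those of RRM2 -0.65, also in the direction of the gene itself. Those of EZH2 had -0.06 and those of UHRF1 0.05, while those of POLA1 had -0.07, with 3 higher and 7 lower. Each of these lists had between 25.0% and 46.2% of its genes called, on either side of the 34.2% found over all genes at or above the median level.

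**Figure D4:**
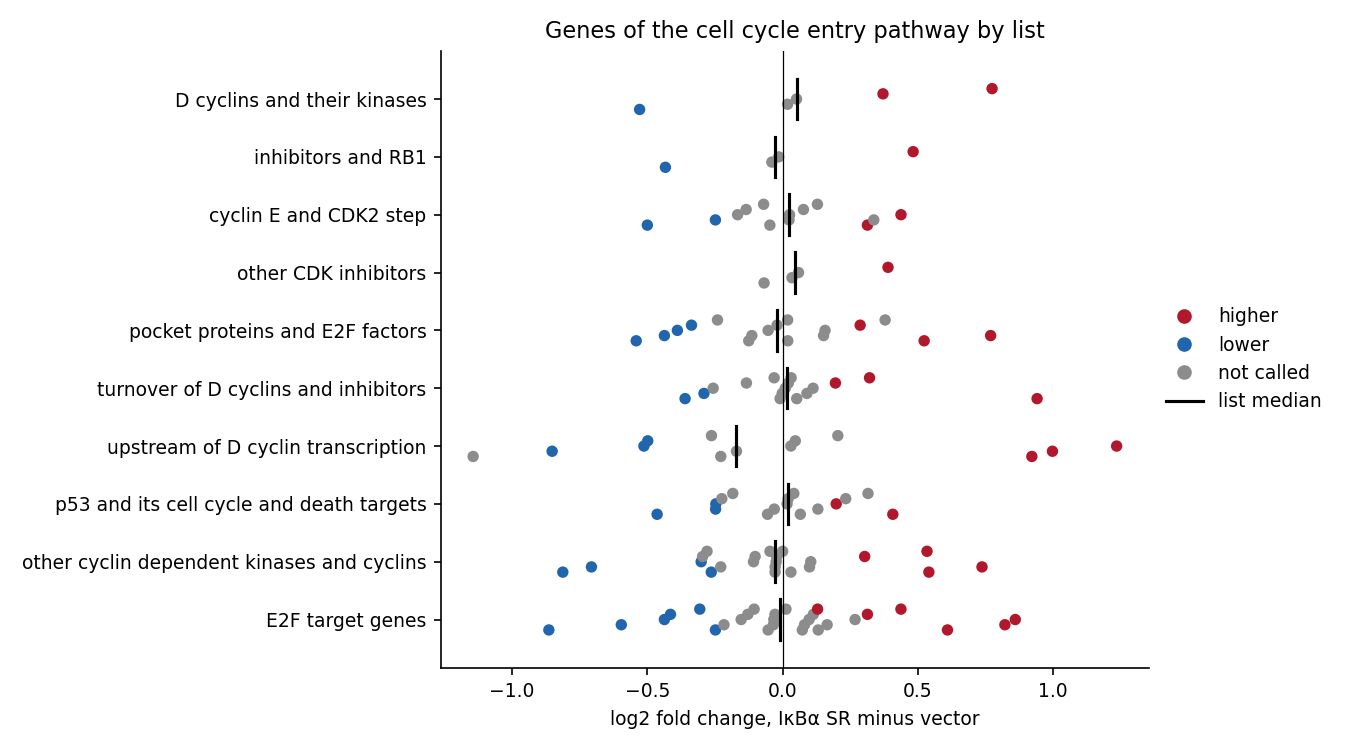
Log2 difference, IκBα SR minus vector, of every measured gene of 10 lists (points, coloured by the limma call) with the median of each list (black bar). All list medians lie between -0.17 and 0.05, with called genes on either side of 0 in every list but that of the other CDK inhibitors.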

How the data were processed

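Total RNA of 3 RH30-IκBα SR and 3 RH30-vector samples was hybridised to Affymetrix Human Transcriptome Array 2.0 arrays. The authors deposited log2 values per transcript cluster, made with Affymetrix Expression Console by the Robust Multichip Average method (background correction, quantile normalization and summary of probes), and the genome build of the annotation is not given in the sources used here. Robust Multichip Average sets the arrays to a common distribution, so a change shared by all genes is not seen. Many deposited values repeat exactly between arrays: 6147 genes were identical within a group and 1563 on all 6 arrays.

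Of 70523 features, 23781 carried 1 gene symbol, 1543 several and 45199 none. Where a symbol had several features the one with the highest mean was used, giving 22411 genes; each measured member had a single feature. Groups were compared with limma 3.58.1 (R 4.3.3; lmFit and eBayes, no covariate) with Benjamini-Hochberg adjustment over all genes, which was tested on simulated data. Depth has no counterpart here; the number of arrays limits the precision. Alternatives were quantile normalization, median centring, other filters and summaries, array weights, a replicate block, the methods' t-test, a 1.5-fold minimum and leaving out each array. Chromosome order came from RefSeq annotation on GRCh38.p14. Members and lists were chosen with earlier results of these data known. The rule for naming allowed, from each list, up to 4 called genes in each direction with the smallest p, and fixed genes at the pathway's centre.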

Additional observations from a re-analysis of the deposited data

How the results depend on the processing

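The 5 calls in the set became 1 with the replicate number as a block (CDKN1B, with adjusted p of 0.069 for CCND1, 0.060 for CCND2, 0.083 for CDK6 and 0.10 for RB1) and 1 where a change of at least 1.5-fold was also required (CCND1). Leaving out 1 array at a time gave 3 to 5 calls, with 3 without IκBα SR replicate 3. Over all genes the 4110 calls became 2450 with the block and 1438 with the fold minimum. Same-numbered arrays did not deviate together (correlations 0.118, -0.217 and -0.195), so the numbers were not taken to pair the samples. Differently numbered arrays gave -0.198 to 0.306, the highest for IκBα SR replicate 2 with vector replicate 3. Whether arrays were linked across the groups in another way was not tested. CCND3 lay between -0.005 and 0.0505 and CDK4 between -0.0576 and 0.1129 over the arrays left out, so their signs turned, and CDKN2A turned to 0.0034 with median centring; none of these was called in those fits. RB1 lost its call in 7 of 16 alternatives, also under the methods' t-test (adjusted p = 0.051). CDKN1B could not be tested where genes with identical values were left out. The neighbour medians depended on the window. With 5 neighbours on each side in place of 10, they went from 0.20 to 0.44 for CCND1 and from 0.15 to 0.32 for CDKN1B. Those of CDK6 went from -0.35 to -0.71, of CDK4 from -0.17 to -0.21 and of RB1 from -0.31 to -0.34. Where dim genes were left out, the turnover list had 8 calls, against 5. The list upstream of D cyclins had 9, against 6, and the cyclin E and CDK2 step 6, against 4. That fit covered only the 11206 genes at or above the median level. Of these 4521 were called, against 3830 of them in the main fit. The cause of these changes was not tested. The number of arrays limits the precision. CDK4 read above 16 in the deposited values, and whether the signal follows the RNA there was not tested.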

Other observations

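Other cyclins and cyclin-dependent kinases, outside the G1 step, were measured for 22 of 25 genes, with 4 called higher and 4 called lower (36.4% called, median -0.03), against 34.2% called among all genes at or above the median level. CDK14, a kinase of the Wnt pathway, was 0.74 higher (8.75 in IκBα SR cells and 8.02 in vector cells), and CDK13, a transcriptional kinase, was 0.54 higher. CCNC, the cyclin of the Mediator kinase module, was 0.53 higher, and the mitotic cyclin CCNB2 0.30 higher. CDK5, best known from neurons, averaged 8.18 in IκBα SR cells and 8.99 in vector cells, a difference of -0.81 (SE 0.080, adjusted p = 0.0034, limma). CCNG1, a p53 target, was at -0.71, and CCNK and CCNL1, cyclins of transcriptional kinases, were at -0.30 and -0.26. The neighbours of CDK13 on its chromosome had a median of 0.72 with 17 of 20 called higher. Those of CCNC had 0.40 with 16 higher, and those of CCNB2 had 0.49 with 15 higher and 1 lower. Around CDK14 the 10 genes with lower coordinates had a median of 0.64 with 10 higher. The 10 with higher coordinates had -0.68 with 9 lower. Those of CDK5 had -0.05 with 1 higher and 3 lower.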
